A study of Mus musculus with 7 samples.

Results

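The genes described here encode the nuclear subunits of the mitochondrial respiratory chain and ATP synthase, with the assembly factors of complex I that carry the same Nduf prefix. They were taken by symbol: names starting Nduf, Uqcr, Atp5, Cox4, Cox5, Cox6, Cox7 or Cox8, and Sdha, Sdhb, Sdhc and Sdhd. Of 96 protein-coding genes with such a name in the reference table, 93 had a probe matched by RefSeq accession, and 89 of these were tested, having a probe clearly brighter than background on 3 or more of the 7 arrays, out of 14537 genes tested in all. All 89 were well above background on every array, so none passed the filter through 1 group alone. None of the 19 pseudogenes with such a name had a matched probe, and Ndufb1, Ndufb4b and Ndufb4c had none.

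The arrays were one-colour Agilent microarrays of dendritic cells grown in culture from sorted common myeloid progenitors of C57BL/6 mice. The 3 arrays labelled knockout came from Gata2(f/f)/ER-Cre mice, in which a Cre recombinase is switched on by tamoxifen, and the 4 control arrays from Gata2(f/f) mice without Cre. Both groups carried the floxed Gata2 gene and received tamoxifen between day 1 and day 10, and their progenitors were sorted on days 20 to 22 and cultured with FLT3-L at 200 ng/ml on SJL (CD45.1+) bone marrow feeder cells. No age is given, nor whether each replicate is a different mouse, and p-values therefore cover just the variation among these arrays, which may be technical. How feeder cells were kept out of the RNA is not stated in the labels.

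The respiratory chain sits in the inner mitochondrial membrane. Complexes I and II pass electrons from NADH and succinate to ubiquinone, complex III passes them on to cytochrome c, and complex IV, cytochrome c oxidase, hands them to oxygen. Complexes I, III and IV pump protons, and ATP synthase, called complex V, makes ATP from the return of those protons. A few subunits, most of them in complex IV, exist as isoforms from separate genes whose use differs between tissues. In dendritic cells, activation is known to move metabolism from respiration towards glycolysis.

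Of the respiratory chain genes, 1 differed between the groups past the threshold. Cox6b2, which encodes the isoform of complex IV subunit VIb known from testis, rose 2.34-fold in the arrays labelled knockout, and no member fell. Thus 1 of 89 members was called, or 1.12%, against 2.9% of all genes tested (limma, Benjamini-Hochberg adjusted p under 0.05 over all genes). By direction, 1.51% of all genes were called higher and 1.39% lower. At an unadjusted p under 0.05 there were 5 members, Cox6b2 among them, or 5.62%, against 13.5% of all genes tested. The 95% confidence interval of 86 of 89 members, or 96.6%, lay within a 2-fold change either way, against 82.3% of all genes. The exceptions were Cox6b2, Cox6a2 and Atp5k.

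**Figure D1:**
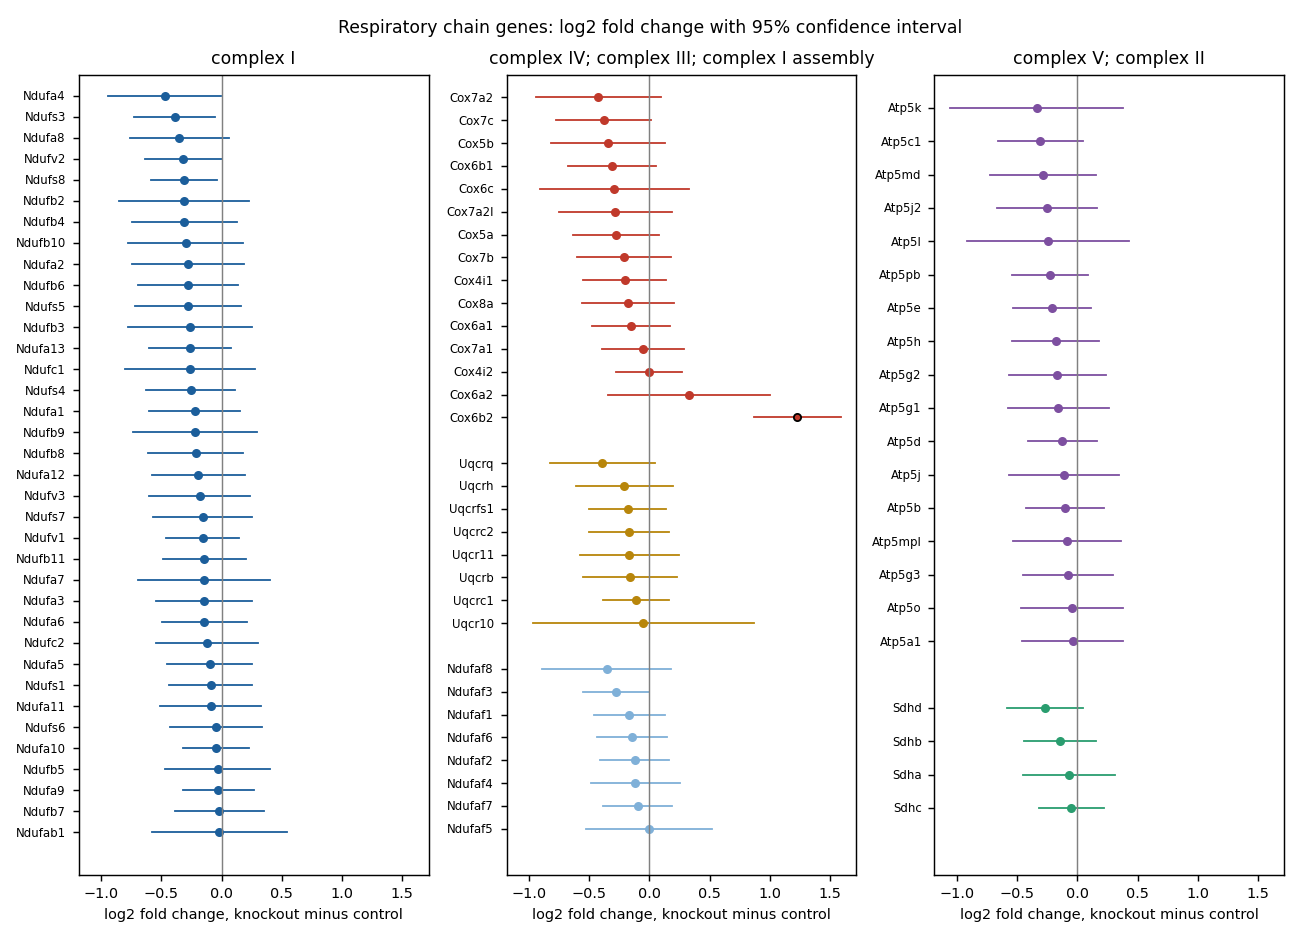
Log2 fold change, arrays labelled knockout minus control, of 88 of the 89 tested genes (points; 1 complex I gene is not shown) with its 95% confidence interval (lines), by complex. Cox6b2, ringed in black, is the 1 member past the threshold, at 1.23, while the other members lie between -0.47 and 0.33.

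Whole-series facts bear on these values. Gata2 itself, the targeted gene, read 2.93, 3.00 and 3.06 on the arrays labelled knockout and -0.25, 0.24, 0.36 and 0.34 on the controls, which runs against the label if its probe lies in the deleted part. The probe's place in the gene was not examined here, so groups are named as labelled. Each group filled a slide row of its own, and row, Cre and genotype cannot be told apart. Negative control spots read -8.78 ± 0.41 (SD, n = 3) and -7.59 ± 0.14 (SD, n = 4), in log2 units relative to each array's 75th percentile.

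Cox6b2 read 2.14, 1.67 and 1.97 on the 3 arrays labelled knockout, as log2 signal relative to the array's 75th percentile, the scale of every level given here. On the 4 controls it read 0.50, 0.86, 0.74 and 0.71. The lowest array labelled knockout thus lay above the highest control. The log2 fold change was 1.23 (SE 0.16, 95% interval 0.87 to 1.59, limma adjusted p = 0.00464). A two-sided exact permutation test over the 35 splits of the arrays gave p = 0.02857, the smallest they can give. That test was run on a gene already called from these same values, whose groups do not overlap, so it adds no separate support. Groups lay apart in this direction for 5.78% of all genes tested. The gene has 1 tested probe, well above background on all 7 arrays. Leaving out each array in turn kept the call, with log2 fold changes between 1.12 and 1.35 and adjusted p between 0.00581 and 0.0323. In the reference annotation Cox6b2 lies between Kmt5c, a histone methyltransferase gene, and Fam71e2. Kmt5c read 4.84, 4.00 and 4.69 against 4.23, 4.90, 4.35 and 4.25, values that overlap between the groups (log2 fold change 0.08, adjusted p = 0.931).

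Its partner Cox6b1 encodes the form of subunit VIb used in most tissues, and its values ran the other way without passing. Cox6b1 read 4.10, 3.62 and 3.72 on the arrays labelled knockout and 3.96, 4.08, 4.30 and 4.17 on the controls. The groups overlapped through replicate 1 of the arrays labelled knockout (log2 fold change -0.31, SE 0.16, adjusted p = 0.455).

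The 250 bases before the start of both genes, with those of Cox6a1, a complex IV gene of most tissues, are shown to set the promoter of the member that rose beside those of 2 that did not. They are RefSeq sequences of build GRCm38.p6, read 5′ to 3′ on the minus strand on which all 3 genes lie, at chr7:4753095-4753344 for Cox6b2, chr7:30626115-30626364 for Cox6b1 and chr5:115348959-115349208 for Cox6a1. Capitals mark matches, on either strand, to the NRF1 (nuclear respiratory factor 1) motif, which is GCGCATGCGC with any base at the sixth position, and to 4 others. The motif of ETS factors such as GABP was searched as CCGGAAG. That of the factor YY1 was searched as AAGATGGC. The CCAAT box was searched by the letters of its name, and that of GATA factors as AGATAA.
Cox6b2: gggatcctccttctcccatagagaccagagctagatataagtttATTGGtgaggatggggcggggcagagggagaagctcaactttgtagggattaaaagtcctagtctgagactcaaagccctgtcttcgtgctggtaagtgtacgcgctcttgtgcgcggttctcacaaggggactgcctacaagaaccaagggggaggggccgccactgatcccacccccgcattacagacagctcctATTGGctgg
Cox6b1: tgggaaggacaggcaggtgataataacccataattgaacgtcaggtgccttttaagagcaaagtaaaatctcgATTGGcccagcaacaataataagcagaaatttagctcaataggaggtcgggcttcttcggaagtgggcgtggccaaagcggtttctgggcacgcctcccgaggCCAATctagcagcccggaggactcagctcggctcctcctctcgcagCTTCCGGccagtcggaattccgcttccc
Cox6a1: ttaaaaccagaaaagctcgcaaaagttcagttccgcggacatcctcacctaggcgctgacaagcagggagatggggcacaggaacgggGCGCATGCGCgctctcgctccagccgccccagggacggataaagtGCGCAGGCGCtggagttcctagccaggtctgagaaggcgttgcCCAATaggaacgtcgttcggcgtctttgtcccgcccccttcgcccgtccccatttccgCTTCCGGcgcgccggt
The Cox6b2 stretch held 2 CCAAT matches, 206 and 9 bases before the start, and none to the other 4 motifs. That of Cox6b1 held an ETS match 28 bases before the start and 2 CCAAT matches. That of Cox6a1 held 2 NRF1 matches, GCGCATGCGC at 162 and GCGCAGGCGC at 117 bases before the start, with an ETS and a CCAAT match. These are matches of letters only, not sites shown to be bound. Of the 74 members with a promoter, 60 had no NRF1 match and 60 no ETS match. Absence of each match was thus common among members. Any part of these motifs in the rise of Cox6b2 was not tested.

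Among all tested members, 74 had a promoter in that table, and the window was the same 250 bases. The NRF1 motif, which is known from many respiratory chain promoters, was present in 14 of 74 members or 18.9%, against 7.97% of all tested genes with a promoter and 4.23% of all genes in the table. The ETS motif was likewise in 14 members, against 13.7% of tested genes and 7.83% of all genes. The GATA motif was in 6 members, or 8.11%, near the 8.37% of tested genes. The YY1 motif was in 1 member and CCAAT in 33, or 44.6%, against 40.0% of tested genes. Members with the NRF1 motif had a median log2 fold change of -0.17 and those without it -0.18.

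Apart from Cox6b2, the isoform genes of complex IV showed no call. Cox6a2, the heart and skeletal muscle isoform of subunit VIa, read 5.22, 4.18 and 5.06 on the arrays labelled knockout. On the controls it read 4.17, 5.01, 4.33 and 4.45, so that replicate 2 of the first group and control replicate 2 each lay among the values of the other group. Its log2 fold change was 0.33 (SE 0.29, adjusted p = 0.692), the highest after Cox6b2, and its interval ran from -0.34 to 1.00. Without replicate 2 labelled knockout it was 0.65 (adjusted p = 0.226). Its common counterpart Cox6a1 lay between 6.46 and 6.85 against 6.68 to 6.86 (log2 fold change -0.15, adjusted p = 0.699).

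Cox4i2, the lung isoform of subunit IV, spanned -1.65 to -1.51 in the group labelled knockout and -1.64 to -1.42 in the controls. Cox4i1, the isoform of most tissues, had a log2 fold change of -0.20 (adjusted p = 0.622). Cox7a1, the muscle isoform of subunit VIIa, read -0.58 ± 0.16 (SD, n = 3) against -0.53 ± 0.17 (SD, n = 4). The common isoform Cox7a2 stood at -0.42 (SE 0.23, adjusted p = 0.476), and Cox7a2l, which takes part in joining complexes III and IV into supercomplexes, -0.28 (adjusted p = 0.618). Cox7b and Cox8a stood at -0.21 and -0.18 (adjusted p = 0.651 and 0.711).

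The 4 members that were not tested are all isoform genes, and none was well above background on any array. They are the testis isoforms Cox7b2 and Cox8c, the muscle isoform Cox8b, and Ndufa4l2, a paralogue of Ndufa4 known as a hypoxia-induced gene. Cox6b2 was thus the only 1 of the 3 testis isoforms here that was detected. With no filter on background, Cox7b2 and Cox8c were called lower, with log2 fold changes of -1.14 and -1.18 (adjusted p = 0.00765 for both). Cox7b2 then read -8.22, -8.87 and -8.93 against -7.60, -7.65, -7.55 and -7.32, close to the negative control spots of the same groups.

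**Figure D2:**
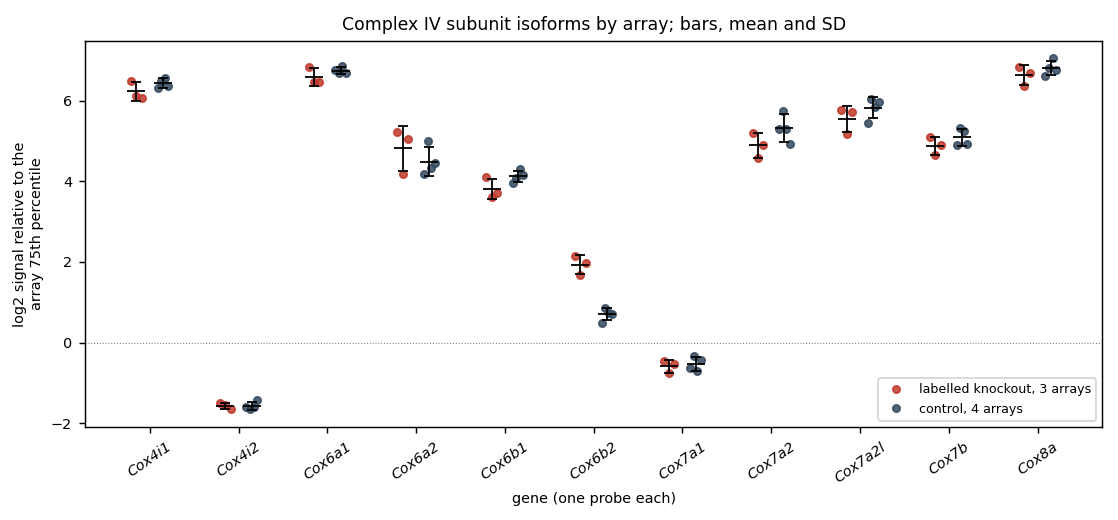
Log2 signal relative to the array's 75th percentile for the tested complex IV isoform genes, in each array labelled knockout (red) and each control (dark), with mean and SD. Heights are not comparable between genes, which are read by different probes. Only for Cox6b2 do the 3 arrays labelled knockout, from 1.67 to 2.14, stand wholly above the 4 controls, from 0.50 to 0.86.

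Complex I was represented by 37 subunit genes, counted by the Nduf prefix, of which none passed. Their median log2 fold change was -0.19, and the lowest value was -0.47, that of Ndufa4. The 7 core subunits, which hold the flavin and the iron-sulphur clusters or bind ubiquinone, had a median of -0.16, and the 30 accessory subunits -0.20. Ndufs3, a core subunit, read 5.21, 4.98 and 4.96 on the arrays labelled knockout and 5.29, 5.66, 5.51 and 5.30 on the controls. Its groups did not overlap, by a narrow margin (log2 fold change -0.39, SE 0.15, interval -0.73 to -0.05, adjusted p = 0.282). Ndufs8, a core subunit that carries iron-sulphur clusters, read 3.91, 3.97 and 3.88 against 4.09, 4.27, 4.28 and 4.28 (log2 fold change -0.31, SE 0.12, adjusted p = 0.284). Ndufv2, of the NADH-binding module, read 4.93, 4.59 and 4.79 against 5.16, 4.95, 5.22 and 5.01 (log2 fold change -0.32, adjusted p = 0.374). For all 3 the highest array labelled knockout lay just under the lowest control.

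Ndufa4, named for complex I and since assigned to complex IV, is counted here with complex I and its accessory subunits. It had the lowest log2 fold change of all members, -0.47 (SE 0.20, adjusted p = 0.365). It read 5.75, 5.26 and 5.11 on the arrays labelled knockout and 5.64, 6.11, 6.01 and 5.63 on the controls, and the groups overlapped through replicate 1. Ndufa8, an accessory subunit, stood at -0.35 (adjusted p = 0.455).

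The 8 assembly factors of complex I had a median of -0.13, and none passed. Ndufaf3, which acts early in building the complex, read 3.33, 3.26 and 3.14 against 3.53, 3.43, 3.60 and 3.53, without overlap (log2 fold change -0.28, SE 0.12, adjusted p = 0.359). Ndufaf8 stood at -0.36 (adjusted p = 0.579) and Ndufaf1 at -0.17 (adjusted p = 0.637).

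The 4 genes of complex II, succinate dehydrogenase, which is also an enzyme of the citric acid cycle, had a median of -0.11. The flavoprotein gene Sdha spanned 4.19 to 4.67 in the group labelled knockout and 4.29 to 4.59 in the controls (log2 fold change -0.07, adjusted p = 0.905). Sdhb, the iron-sulphur subunit, stood at -0.15, and of the membrane anchors Sdhc stood at -0.05 and Sdhd at -0.27 (adjusted p = 0.689, 0.902 and 0.45). Sdhd read 4.76, 4.57 and 4.69 against 4.75, 4.92, 5.14 and 4.95.

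In complex III, 8 genes were tested, with a median of -0.17 and no call. The lowest was Uqcrq, a small accessory subunit, which read 5.40, 4.82 and 5.04 against 5.19, 5.47, 5.77 and 5.47 (log2 fold change -0.39, SE 0.19, adjusted p = 0.436). Uqcrh, the hinge protein, stood at -0.21 and Uqcrfs1, the Rieske iron-sulphur protein, at -0.18 (adjusted p = 0.672 and 0.642). Uqcr10 had the widest interval in this complex, from -0.97 to 0.87. Its arrays differed widely within groups, with 5.12, 3.59 and 4.51 on the arrays labelled knockout and 3.93, 5.21, 4.39 and 4.32 on the controls.

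Among the other complex IV subunits, which are carried by all tissues, Cox7c read 5.22, 4.86 and 5.05 against 5.23, 5.78, 5.30 and 5.39. Its groups did not overlap, by the narrowest of margins (log2 fold change -0.38, SE 0.17, adjusted p = 0.395). Cox5b stood at -0.34 (adjusted p = 0.536). Over all 15 tested genes of the complex the median was -0.21.

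ATP synthase had 17 tested genes, all with a mean below the controls and none called, and a median of -0.17. Atp5c1, the gamma subunit that forms the rotating shaft of the F1 head, read 5.28, 5.23 and 5.19 against 5.36, 5.88, 5.52 and 5.41, without overlap (log2 fold change -0.31, SE 0.15, adjusted p = 0.448). Atp5k, the small membrane subunit e, stood at -0.34 with an interval from -1.05 to 0.38 (adjusted p = 0.702), and Atp5md at -0.29 (adjusted p = 0.586). Atp5g1, Atp5g2 and Atp5g3 encode the same mature ring subunit c, and stood at -0.16, -0.17 and -0.08 (adjusted p = 0.771, 0.747 and 0.887). As near-identical coding regions can share signal between probes, these 3 are given as uncertain.

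Counting groups that did not overlap, 6 members lay wholly below the controls: Ndufs3, Ndufs8, Ndufv2, Ndufaf3, Cox7c and Atp5c1. That is 6.74% of members, against 8.05% of all genes tested. Above the controls lay 1 member, Cox6b2, against 5.78% of all genes.

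The members shared a small displacement that depended on how arrays were scaled. Their mean lay below the controls for 86 of 89 members with scaling to the 75th percentile, for 73 with scaling to the median and for 49 with quantile normalization. That is 96.6%, 82.0% and 55.1% of members, against 57.9%, 46.4% and 46.4% of all genes tested. The median log2 fold change of the members was -0.17, -0.10 and -0.01 under these 3 scalings, while that of all genes tested was -0.05, 0.02 and 0.02. No member passed as lower under any of them, and Cox6b2 passed under each (adjusted p = 0.00464, 0.00318 and 0.00481). By complex, the medians with quantile normalization were -0.02 for complex I, 0.06 for II, 0.01 for III, -0.05 for IV and 0.05 for V, so those of II, III and V changed sign.

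**Figure D3:**
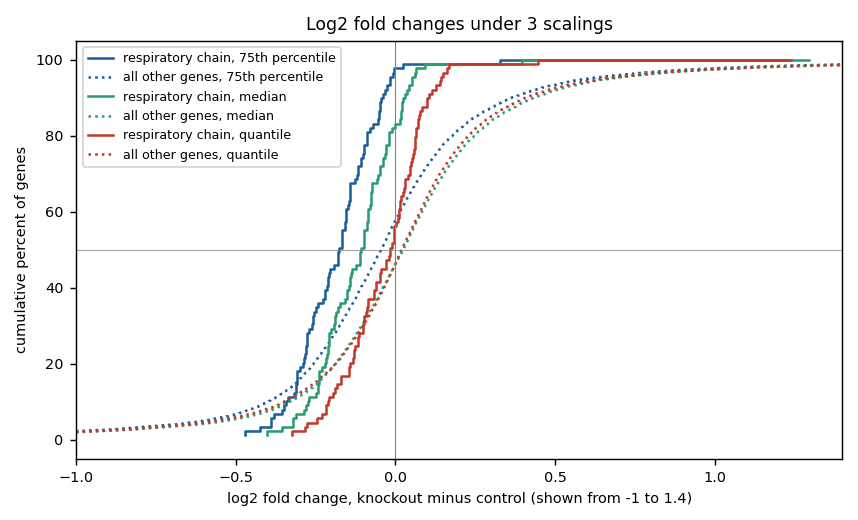
Cumulative percent of genes against log2 fold change (knockout minus control) for the 89 respiratory chain genes (solid) and all other tested genes (dotted) under 3 scalings. The respiratory chain curve crosses 50% at -0.17 with the 75th percentile, -0.10 with the median and -0.01 with quantile normalization.

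The displacement was also uneven over the arrays labelled knockout. As a median over the 89 members, the difference of an array from each gene's control mean was 0.01, -0.38 and -0.24 on replicates 1, 2 and 3, and -0.12, 0.06, 0.10 and -0.07 on the controls. Replicate 1 thus lay among the controls, and replicates 2 and 3 below all of them. Over all genes tested the same medians lay between -0.09 and -0.02 on the arrays labelled knockout. Replicate 2 was the lowest of the 7 arrays for 59 of 89 members and replicate 3 for 17. Without replicate 1 the members' median log2 fold change was -0.31, against -0.06 over all genes tested. Leaving out replicate 2 gave -0.10 for the members, against -0.07 over all genes tested. Without replicate 2 the medians of complexes I, IV and V were -0.08, -0.09 and -0.05, Atp5k stood at -0.02, Atp5g2 at -0.00 and Cox7a2l at -0.09. Replicate 2 also stood apart in its spike-in control spots, with a median of -0.20 in the same log2 units, against 2.61 and 2.01 on replicates 1 and 3 and 0.80 to 1.48 on the controls. The part of this in the members' displacement was not tested. With quantile normalization the medians of these arrays were 0.04, -0.16 and -0.01.

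**Figure D4:**
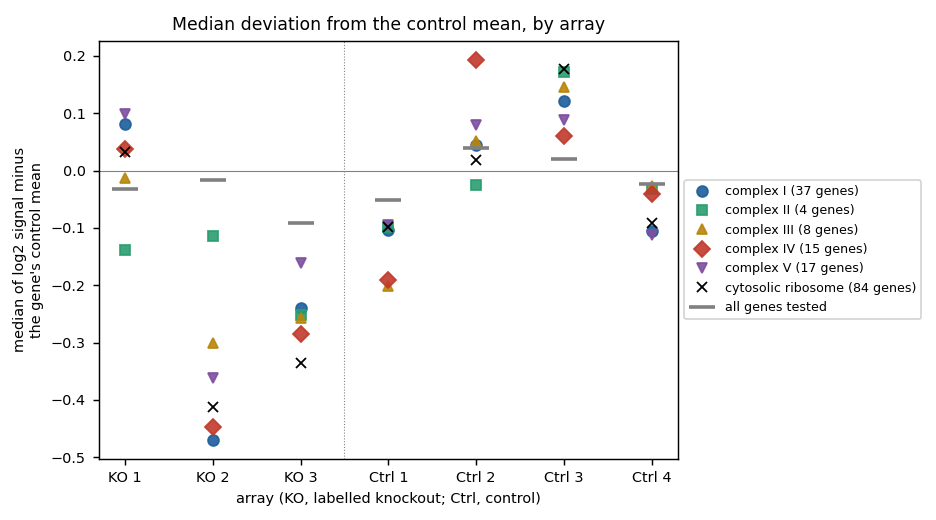
Median over the genes of each complex of the difference between an array's log2 signal and the gene's control mean, for 3 arrays labelled knockout (KO) and 4 controls (Ctrl), with the cytosolic ribosomal protein genes (crosses) and all genes tested (grey bars). Complexes I, III, IV and V lie lowest on replicate 2 labelled knockout, from -0.47 for complex I to -0.30 for complex III, while on replicate 1 complexes I, IV and V lie between 0.04 and 0.10.

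Replicates 1 and 2 labelled knockout were also set against each other. Replicate 2 was lower than replicate 1 for 78 of 89 members, with a median difference of -0.44 in log2 signal, against 49.1% of all genes tested and a median of 0.01. With quantile normalization the median difference was -0.18, and 67 members were lower. The median was -0.59 over the 30 accessory subunits of complex I and -0.21 over its 7 core subunits, of which 4 were lower. It was -0.64 over the 12 ATP synthase genes outside the F1 head and -0.20 over the 5 genes of the head. The largest drops were those of Uqcr10, by -1.53, Atp5l, by -1.21, and Atp5k, Cox6a2 and Ndufab1, each by -1.04. Members higher on replicate 2 included Atp5a1, Sdha and Ndufs1, by 0.47, 0.42 and 0.30, and the accessory subunit Ndufa10, by 0.15, while the core subunit Ndufs7 was lower, at -0.65. Neutrophil markers differed more between these arrays, with a median of -1.91 and 10 of 10 lower, and their medians against the control mean were -0.42, -2.89 and -2.92 on replicates 1, 2 and 3. Their part in the members' difference was not tested. The standard deviation was larger in the arrays labelled knockout than in the controls for 62 of 89 members, or 69.7%, against 49.3% of all genes tested.

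**Figure D5:**
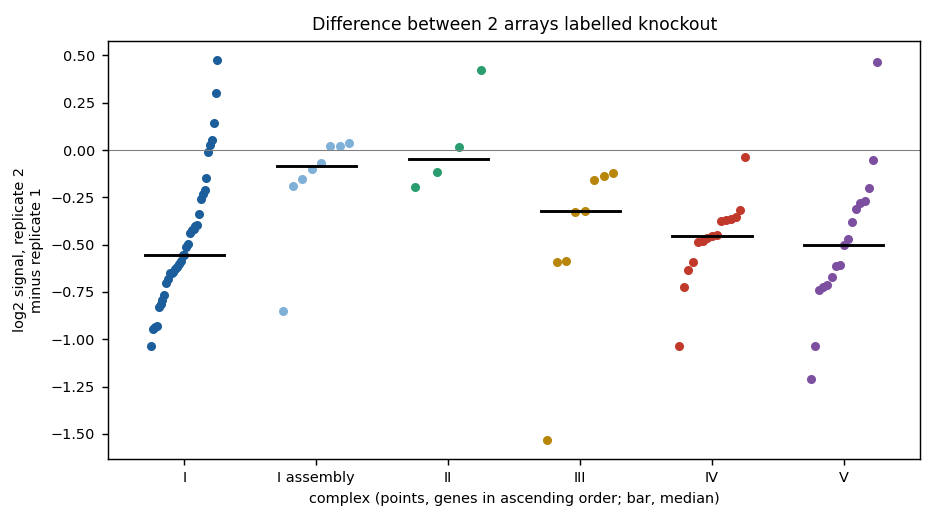
Log2 signal on replicate 2 minus replicate 1 of the arrays labelled knockout for each member (points), by complex, with the median as a bar. The medians are -0.56 for complex I, -0.05 for II, -0.32 for III, -0.46 for IV and -0.50 for V, and -0.08 for the assembly factors.

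Where a gene had several tested probes, their signs mostly agreed. Of 24 such members, 5 had a further probe of the opposite sign: Cox7a2l, Ndufaf4, Ndufv3, Sdhc and Uqcr10. The widest gap was that of Ndufv3, whose second probe gave 0.36 (adjusted p = 0.546). Of 120 tested probes of members, 1 passed, that of Cox6b2.

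Other genes of mitochondrial energy metabolism gave no call either. Of all genes tested 2.9% were called, and at that rate lists of this size would hold few calls or none. None passed of 18 electron carrier and ubiquinone synthesis genes (median log2 fold change -0.10), 34 assembly factors of other names (-0.15), 19 citric acid cycle and pyruvate dehydrogenase genes (-0.10), 18 regulators of mitochondrial biogenesis (-0.12) and 20 carrier and antioxidant genes (-0.16). The same held for 77 mitochondrial ribosomal protein genes (-0.17) and 24 protein import genes (-0.13). Of the named examples, Gabpb1, a subunit of the GABP factor, read 2.93 ± 0.13 (SD, n = 3) against 2.39 ± 0.17 (SD, n = 4) and did not pass (adjusted p = 0.114). Gabpa, its DNA-binding partner, stood at -0.43 (adjusted p = 0.523) and Pprc1, a coactivator of mitochondrial genes, at 0.41 (adjusted p = 0.245). Coq10b, a ubiquinone-binding protein, stood at -0.58 (adjusted p = 0.298) and Sdhaf4, an assembly factor of complex II, at -0.48 (adjusted p = 0.244). The 13 genes of the mitochondrial genome had no matched probe and were not analysed here.

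Among 25 glycolysis genes none passed, against 2.9% of all genes tested, with a median of -0.11. Eno2, an enolase, had the lowest value, -0.94 (SE 0.50, adjusted p = 0.476). Ldhb, a lactate dehydrogenase chain, stood at -0.55 (adjusted p = 0.111) and Pfkm, a phosphofructokinase, at 0.45 (adjusted p = 0.157). The cytosolic ribosomal protein genes, 84 in number and outside the mitochondrion, had a median of -0.25 with none called. Of these, 81 lay below the controls, or 96.4%, against 57.9% of all genes tested. The highest was Rpl39l, at 1.17 (SE 0.62, adjusted p = 0.476), and the lowest Rpl13a, at -0.43 (adjusted p = 0.35). The list's median was -0.03 with quantile normalization. Their array medians of 0.03, -0.41 and -0.34 on replicates 1, 2 and 3 labelled knockout followed the same order as those of the respiratory chain genes. What part of the displacement is shared with such genes was not tested.

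Markers of several other cell types differed between the groups. Of 19 tested dendritic cell markers none passed, and their summed signal spanned 8.74 to 8.99 on the arrays labelled knockout and 8.85 to 9.09 on the controls, in log2 units. Mast cell and basophil markers fell for 7 of 9 (summed signal 2.92 to 3.40 against 4.19 to 4.90), monocyte and macrophage markers for 6 of 8 (5.51 to 5.81 against 6.25 to 6.52) and neutrophil markers for 3 of 10 (6.45 to 6.93 against 7.04 to 7.23). Megakaryocyte and platelet markers fell for 3 of 6 (4.71 to 5.02 against 5.48 to 6.14). T cell markers rose for 3 of 8 (2.88 to 3.02 against 1.96 to 2.27), with Cd247 below background on all arrays, and no B cell marker of 6 and no erythroid marker of 3 passed, with Alas2 below background on all arrays. Fewer cells of a type and less RNA per cell cannot be told apart in such samples. The part of these shifts in the rise of Cox6b2 was not tested.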

How the data were processed

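RNA of the cultured cells was read on 7 one-colour Agilent arrays. Whether each array is a separate culture is not given in the labels. The scanner files give intensity per spot, deposited as the output of Agilent's Feature Extraction software, version 10.7.3.1 (per the file headers). The deposited series table holds log2 values, centred per probe, as a comparison with the scanner values showed (array differences correlated at 1.0 with slope 1.0, in the same direction); its column medians were 0 except -0.02 on replicate 3 labelled knockout, and it served as an alternative.

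From log2 processed signal the 75th percentile of the array's spots, controls left out, was subtracted (percentiles 2671 to 3825 intensity units). Spots marked as outliers were dropped and a probe's remaining spots averaged. A probe was tested if at least 3 of the 7 arrays had it well above background. Probes were named by RefSeq accession through a GRCm38.p6 table (26413 of 55681 probes, 79.9% of the 33064 carrying one). Per the file headers, the array design was annotated on an earlier mouse build. The scanner files gave no gene names beside accessions, so naming by accession alone is the main setting and was not run as an alternative. The brightest tested probe represented a gene. The test was limma 3.58.1 (lmFit, then eBayes; R 4.3.3), tested on simulated data, with Benjamini-Hochberg adjustment over all genes. All arrays lay on 1 slide and in 1 scan. The number of arrays limits the precision.

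Members and lists were chosen with earlier results of these data known. Named members are those past the threshold, up to 3 each way per complex, and isoform pairs; other lists give at most 4 called genes in each direction, and at most 2 as values if there are none. Ndufs8, Ndufv2, Sdhc, Uqcr10, Ndufab1, Ndufaf4, Ndufa10, Ndufs7, Atp5l, Atp5a1, Ndufs1, Ndufv3 and Kmt5c were chosen after their values were seen. Values of 1 member that the rule names, and of 1 marker gene, are not reported here. Alternatives covered background correction, scaling, the series table, filters, the probe rule, variance model, array weights, the replicate number as a block and omission of each array. The normexp correction used median spot signal.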

Additional observations from a re-analysis of the deposited data

Results flagged for a closer look

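The control values of 39 results were checked for an array far from the other 3, which chance alone gives in about 1 of 20 groups of 4. For Sdhb, control replicate 3 read 6.126, against 5.861 to 5.879 on the other controls. For Uqcrh, control replicate 1 read 5.817, against 6.316 to 6.362 on the others. These are 2 of the 39, about what chance gives. Neither gene was called in the comparison of the groups.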

How the results depend on the processing

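Cox6b2 kept its call and direction under 16 of 17 alternatives. It did not pass with a replicate block (log2 fold change 1.23, adjusted p = 0.0962), where 0 members were higher, and 87 genes higher and 93 lower in all. Same-numbered arrays did not deviate together (correlations of -0.10, -0.17 and -0.05, against -0.20 to 0.23 for arrays of unlike number). Deviations from means of 3 and 4 arrays cannot exclude a pairing, so whether the numbers pair the samples is not known. No member was lower except with no filter, where 2 were, both below background on every array. The members' median ranged from -0.31 to -0.01 over the alternatives, against -0.17 in the main setting. In each it moved by less than the SD of the array medians labelled knockout, 0.19. Without replicate 1 labelled knockout (-0.31) and with quantile normalization (-0.01) it moved by more than the SD of the control array medians, 0.10. Over all genes, 365 were higher and 2483 lower with no filter, and 382 and 375 with array weights, against 219 and 202. The normexp correction called 195 higher and 286 lower. Leaving out 1 array at a time gave 88 to 227 higher and 105 to 180 lower; the members' count stayed at 1 higher and 0 lower, and their median ranged from -0.31 to -0.10. The higher count moved by over 1.5 times when any array labelled knockout was omitted (replicate 2, 145; replicate 3, 88; replicate 1 between these), and the lower count when control replicate 3 (133) or replicate 3 labelled knockout (105) was. Among complexes, only the medians of II (0.06) and III (0.01), with quantile normalization, moved by more than the SD over the arrays labelled knockout. With that normalization those of I, IV and V also moved by more than the SD over the controls (0.11, 0.16 and 0.11). Among named genes, Cox6a1 (0.08) and Sdhb (0.06), again with quantile normalization, moved by more than the spread between arrays. Omitting replicate 2 labelled knockout shrank the medians of complexes I, IV and V by over 1.5 times, to -0.08, -0.09 and -0.05. The limit here is 3 arrays against 4: the median SD of a member was 0.24 and 0.17, so differences of that size are not resolved.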
